A study of Mus musculus with 3 samples.

Results

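The 7 genes described here encode transcription factors of the AP-2 family (Tfap2a, Tfap2b and Tfap2c) and of the Sall family (Sall1, Sall2, Sall3 and Sall4). They were chosen by symbol, and all 7 were among the 23284 genes listed for each of 3 RNA-seq libraries from mouse embryo digits. There was 1 library for each of 3 sorted cell populations. The Sox9+ library came from digit cells at E13.5 (E, embryonic day) of Sox9-eGFP/+ mice, and the labels do not name the limb. The Lgr5+ library came from forelimb digit cells at E14.5 of Lgr5-eGFPCreERT2/+ mice, which the labels call interzone, the band of cells at a future joint. The Lgr5- library held forelimb digit cells without GFP from this line at E14.5, called non-interzone, and GFP-negative cells of any type could enter it. Below, Sox9+ cells, Lgr5+ cells and Lgr5- cells each stand for that 1 library. All mice are given as C57/bl6 and each genotype is a reporter over a plus sign, so no library came from a wild-type animal. How many embryos or cells went into a library is not given in the sources used here. Levels are in FPKM, which divides fragments by the length of the transcript and by the total of its library. Genes can therefore be compared within a library.

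AP-2 proteins bind GC-rich DNA as dimers through a shared carboxy-terminal domain. They are known for roles in surface ectoderm and neural crest, and Tfap2a and Tfap2b are also expressed in limb bud mesenchyme. In humans, TFAP2B variants cause Char syndrome, which includes anomalies of the little finger. Sall proteins are zinc finger factors, and several recruit the NuRD histone deacetylase complex through a short amino-terminal motif. Human SALL1 and SALL4 variants cause Townes-Brocks syndrome and Duane-radial ray syndrome, both with thumb or forearm defects.

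No population had a replicate. Each difference below is therefore between libraries, with no error, test or p-value, and the depth of the libraries is unknown. The sorting gene Lgr5 was highest in Lgr5+ cells, at 26.8 FPKM against 1.36 FPKM in Lgr5- cells and 3.48 FPKM in Sox9+ cells. Sox9 stood at 332 FPKM in Lgr5+ cells, above the 254.7 FPKM of Sox9+ cells and the 147.1 FPKM of Lgr5- cells. Between 11924 and 12002 genes reached 1 FPKM in a library, and 6461 to 6751 genes were listed at 0. The Sox9+ library differs from the others in day, reporter, sort and possibly limb, and these cannot be told apart. In libraries made from bulk RNA, fewer cells of a type and less RNA per cell cannot be told apart either.

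All 7 genes were low to moderate in level, from 0.06 to 13.1 FPKM, and fell into 2 patterns. Tfap2a, Tfap2b, Sall1 and Sall2 were highest in Lgr5- cells at E14.5. Tfap2c, Sall3 and Sall4 were highest in Sox9+ cells at E13.5 and under 1 FPKM in both E14.5 libraries. None of the 7 was highest in Lgr5+ cells.

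**Figure D1:**
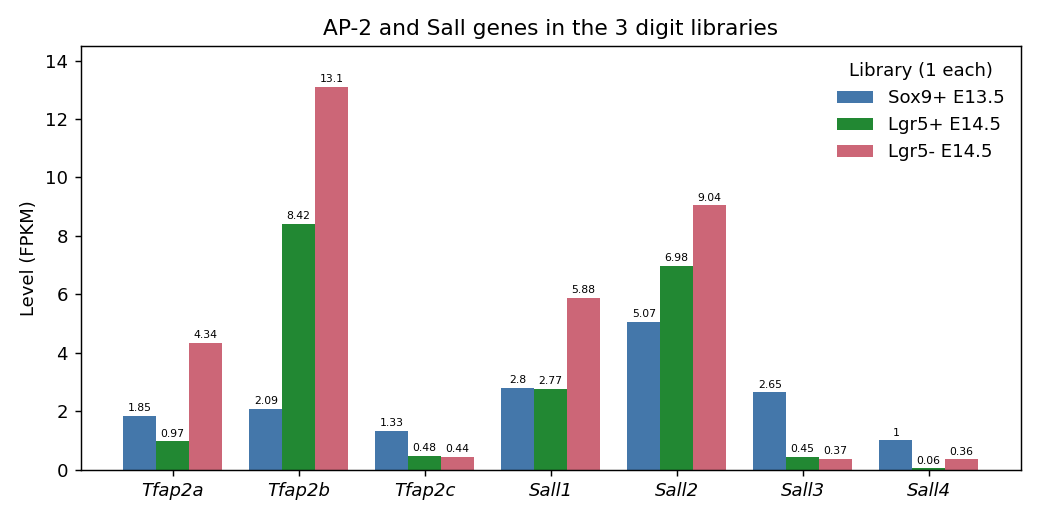
Bars give the level in FPKM of each of the 7 genes in the Sox9+, Lgr5+ and Lgr5- libraries, with 1 library per population and no error bars. Tfap2b reached 13.1 FPKM in Lgr5- cells, and Tfap2c, Sall3 and Sall4 were under 1 FPKM in both E14.5 libraries.

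Tfap2b encodes AP-2 beta and lies on GRCm38 chromosome 1, 19208914 to 19238576, plus strand. Its level was 2.09 FPKM in Sox9+ cells, 8.42 FPKM in Lgr5+ cells and 13.1 FPKM in Lgr5- cells. It was thus higher in both E14.5 libraries than in the Sox9+ library. At 13.1 FPKM it exceeded 77.5% of all listed genes in Lgr5- cells, and at 2.09 FPKM it exceeded 54.5% of them in Sox9+ cells. Tfap2a encodes AP-2 alpha and lies on chromosome 13, 40715302 to 40738376, minus strand. Its level was 1.85 FPKM in Sox9+ cells, 0.97 FPKM in Lgr5+ cells and 4.34 FPKM in Lgr5- cells. Unlike Tfap2b, Tfap2a was lowest in Lgr5+ cells. Tfap2c encodes AP-2 gamma, which is known in trophoblast, germ cells and epidermis, and lies on chromosome 2, 172549593 to 172558622, plus strand. It stood at 1.33 FPKM in Sox9+ cells, 0.48 FPKM in Lgr5+ cells and 0.44 FPKM in Lgr5- cells. Of the family's other genes, Tfap2d was listed at 0 in every library, and Tfap2e stood at 0.44, 0.45 and 0.1 FPKM in the Sox9+, Lgr5+ and Lgr5- libraries.

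The promoter windows of Tfap2a and Tfap2b are shown because these paralogs were both highest in Lgr5- cells but differed in Lgr5+ cells. Each is the 250 bases before a RefSeq start on GRCm38.p6, written along the gene's own strand. The Tfap2a window is chr13:40734921-40735170 on the minus strand, and the Tfap2b window is chr1:19211804-19212053 on the plus strand. Both lie inside the GENCODE span of their gene and overlap no annotated exon of it. The table holds a second Tfap2a window, chr13:40733796-40734045, which is not shown because 180 of its bases are annotated as UTR. Capitals mark matches to the homeodomain core letters TAATTA or TAATTG on either strand.
Tfap2a: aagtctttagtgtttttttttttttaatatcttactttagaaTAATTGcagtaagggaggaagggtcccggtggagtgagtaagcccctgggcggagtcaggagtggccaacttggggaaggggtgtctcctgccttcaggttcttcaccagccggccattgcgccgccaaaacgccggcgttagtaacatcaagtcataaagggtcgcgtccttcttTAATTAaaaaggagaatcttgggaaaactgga
Tfap2b: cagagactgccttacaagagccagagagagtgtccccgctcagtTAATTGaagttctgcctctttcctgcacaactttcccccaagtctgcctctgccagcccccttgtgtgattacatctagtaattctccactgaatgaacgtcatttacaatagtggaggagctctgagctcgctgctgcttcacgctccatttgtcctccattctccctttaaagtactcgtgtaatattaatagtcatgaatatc

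Counting the base just before the start as -1, TAATTG began at -208 and TAATTA at -32 in the Tfap2a window, and TAATTG began at -206 in the Tfap2b window. Neither run of letters matched in the other Tfap2a window, in the 3 windows of Sall1 or in the 2 of Sall2. Of all 32851 windows of this length in the table, 4.84% held TAATTA and 7.17% held TAATTG. The palindromic AP-2 motif GCCNNNGGC was in 13.7% of all windows. It matched in none of the 8 windows of the 4 genes with an entry, Tfap2a, Tfap2b, Sall1 and Sall2. Nor did the T-box letters AGGTGTGA (1.12% of all windows) or the GLI letters GACCACCCA (0.225%) match there on either strand. Tfap2c, Sall3 and Sall4 had no entry. None of the motifs searched overlapped another in the windows shown. All motif letters except those of AP-2 were chosen after the sequences had been seen, and a match is a run of letters and no evidence of binding.

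The AP-2 family differed in make-up between the libraries. The summed level of its 5 genes was 5.71 FPKM in Sox9+ cells, 10.3 FPKM in Lgr5+ cells and 18 FPKM in Lgr5- cells. Tfap2b made up 36.6% of that sum in Sox9+ cells, 81.6% in Lgr5+ cells and 72.9% in Lgr5- cells. The share of Tfap2a was 32.4%, 9.4% and 24.1% in the same order, and that of Tfap2c was 23.3%, 4.65% and 2.45%. The 3 leading AP-2 genes therefore had similar levels in Sox9+ cells, and Tfap2b led by more in both E14.5 libraries. The ratio of Tfap2b to Tfap2a FPKM was 1.13 in Sox9+ cells, 8.68 in Lgr5+ cells and 3.02 in Lgr5- cells.

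Sall2 lies on chromosome 14, 52311172 to 52328762, minus strand, and was the leading Sall gene in every library. Its level was 5.07 FPKM in Sox9+ cells, 6.98 FPKM in Lgr5+ cells and 9.04 FPKM in Lgr5- cells. Sall1, on chromosome 8, 89027235 to 89044162, minus strand, is known for kidney and limb development. It stood at 2.8 FPKM in Sox9+ cells, 2.77 FPKM in Lgr5+ cells and 5.88 FPKM in Lgr5- cells, so that the Lgr5- library stood above a nearly equal pair. Sall3, on chromosome 18, 80966376 to 80986771, minus strand, overlaps with Sall1 in function in the mouse autopod, the hand and foot plate. It stood at 2.65 FPKM in Sox9+ cells, 0.45 FPKM in Lgr5+ cells and 0.37 FPKM in Lgr5- cells. Sall4, on chromosome 2, 168748332 to 168767943, minus strand, acts with Tbx5 in early forelimb and heart and in pluripotent cells. It stood at 1 FPKM in Sox9+ cells, 0.06 FPKM in Lgr5+ cells and 0.36 FPKM in Lgr5- cells.

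The Sall sum varied less than the AP-2 sum, at 11.5 FPKM in Sox9+ cells, 10.3 FPKM in Lgr5+ cells and 15.6 FPKM in Lgr5- cells. Sall2 held 44% of it in Sox9+ cells, 68% in Lgr5+ cells and 57.8% in Lgr5- cells. Sall1 held 24.3%, 27% and 37.6% in the same order, whereas Sall3 held 23%, 4.39% and 2.36%. Sall1 and Sall3 thus had nearly equal levels in Sox9+ cells, with a ratio of 1.06. Sall1 was 6.16 times Sall3 in Lgr5+ cells and 15.9 times Sall3 in Lgr5- cells.

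**Figure D2:**
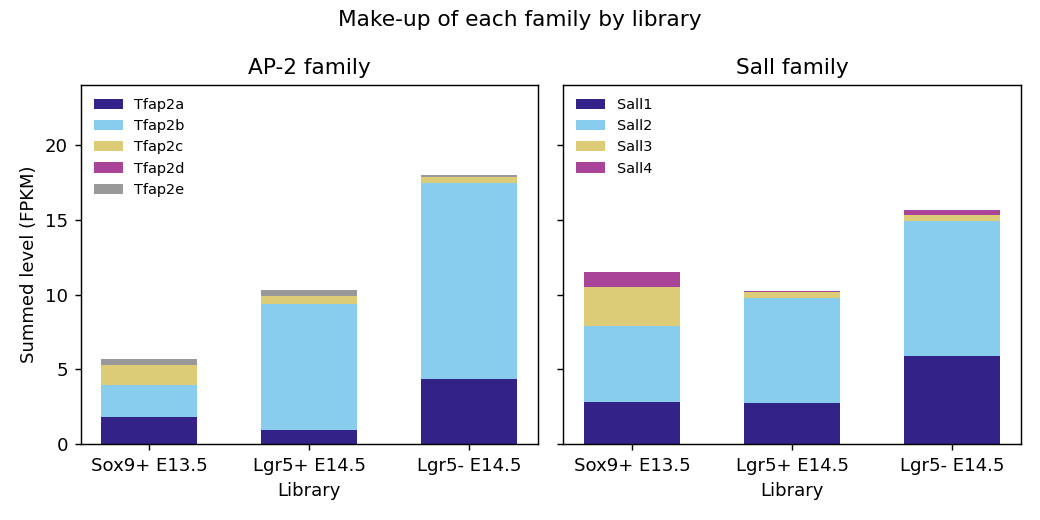
Stacked bars give the summed level in FPKM of the 5 AP-2 genes (left) and the 4 Sall genes (right) in each library. Tfap2b makes up 36.6% of the AP-2 bar in Sox9+ cells and 81.6% in Lgr5+ cells, and the Sall3 layer is thick only in Sox9+ cells.

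With 1 library per population, the spread around these orders is unknown. Within Sox9+ cells the order was Sall2, Sall1, Sall3, Tfap2b, Tfap2a, Tfap2c and Sall4, and each gene from Sall1 down was less than 1.4 times the next. In both E14.5 libraries the order was Tfap2b, Sall2, Sall1, Tfap2a, Tfap2c, Sall3 and Sall4. In the Lgr5- library the widest step in it was the 9.86-fold gap between Tfap2a and Tfap2c. In the Lgr5+ library it was the 7.5-fold gap between Sall3 and Sall4, both under 1 FPKM.

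Differences between libraries were taken as ratios of FPKM + 1, which understates those of low genes. To be measured in a pair, a gene had to reach 1 FPKM in either library, and 2-fold was the threshold for a difference. The 3 pairs share libraries, so their values are not independent.

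Lgr5+ cells were compared with Lgr5- cells to ask how labelled interzone cells differed from other digit cells of the same day. Tfap2a was 2.71-fold lower in Lgr5+ cells (log2 ratio -1.44), or 4.47-fold as a plain ratio of FPKM values. No other of the 4 measured genes was past 2-fold, in a pair where 5.53% of all 12438 measured genes were. Of the genes with 1 to 15 FPKM in the higher library, the range of these 4, 5.46% passed. Sall1 was 1.82-fold lower, Tfap2b 1.5-fold lower and Sall2 1.26-fold lower in Lgr5+ cells. The median log2 ratio was -0.72 over the 4 measured genes, against 0.08 over all measured genes. Over all 7, with 5 below 0 and 2 above, it was -0.36. Tfap2c, Sall3 and Sall4 were under 1 FPKM in both libraries and were not counted as measured. The Tfap2a call ended with a minimum of 5 FPKM, which the gene does not reach, and at a threshold of 3-fold.

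Lgr5+ cells were next compared with Sox9+ cells, which sets labelled interzone cells against earlier digit cells. All 7 genes were measured, Sall4 at exactly the minimum of 1 FPKM, and 2 were past 2-fold, where 8.29% of 12492 measured genes were (8.62% of those with 1 to 15 FPKM in the higher library). Tfap2b was 3.05-fold higher in Lgr5+ cells (log2 ratio 1.61), and Sall3 was 2.52-fold lower (log2 ratio -1.33). As plain ratios of FPKM values these were 4.03-fold and 5.89-fold. Sall4 was 1.89-fold lower on this scale, and 16.7-fold lower as a plain ratio, which rests on a level of 0.06 FPKM. Tfap2c was 1.57-fold (2.77-fold as a plain ratio) and Tfap2a 1.45-fold lower, and Sall2 was 1.31-fold higher. The median log2 ratio of the 7 genes was -0.53, against 0.06 over all measured genes. Sall1 hardly differed, with a log2 ratio of -0.01 that changed sign in 2 of 7 other settings. The Sall3 call, like the Sall3 call between Lgr5- and Sox9+ cells, ended with a minimum of 5 FPKM and at 3-fold.

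Lgr5- cells were last compared with Sox9+ cells. Tfap2b was 4.56-fold higher in Lgr5- cells (log2 ratio 2.19), and Sall3 was 2.66-fold lower (log2 ratio -1.41). As plain ratios these were 6.27-fold and 7.16-fold, so which of the genes differed more depends on the 1 FPKM added to each level. These were 2 of 7 measured genes, where 8.02% of 12482 measured genes passed 2-fold (7.75% of those with 1 to 15 FPKM in the higher library). Tfap2a was 1.87-fold, Sall1 1.81-fold and Sall2 1.65-fold higher in Lgr5- cells. Tfap2c was 1.62-fold and Sall4 1.47-fold lower, or 3.02-fold and 2.78-fold as plain ratios. The median log2 ratio of the 7 genes was 0.73, against -0.01 over all measured genes.

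**Figure D3:**
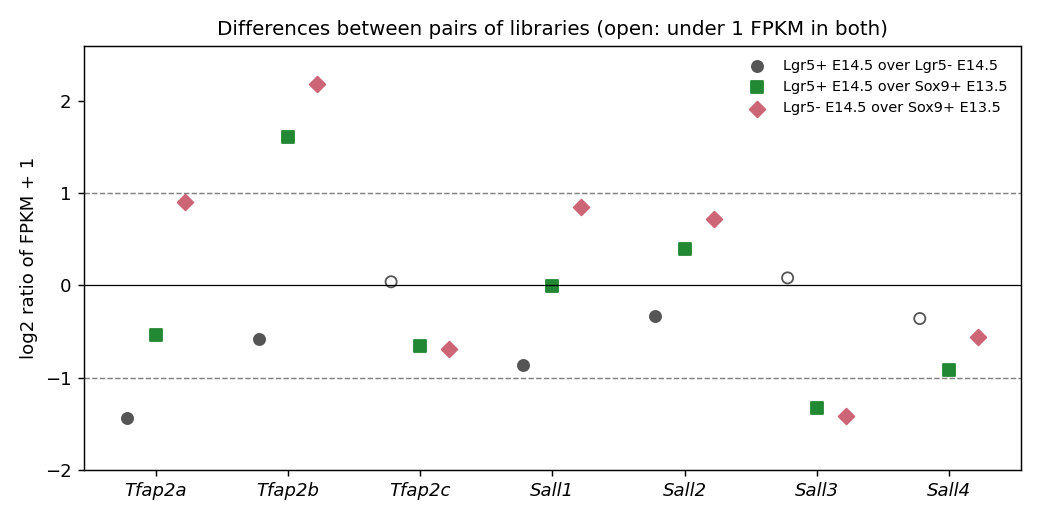
Points give the log2 ratio of FPKM + 1 of each gene in the 3 pairs of libraries; dashed lines mark 2-fold, and open points are genes under 1 FPKM in both libraries. Tfap2b reaches 2.19 in the pair of Lgr5- and Sox9+ libraries, and Sall3 lies below -1 in both pairs with the Sox9+ library.

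Cofactors of AP-2 proteins were taken with the family's other genes as a list of 11. Of its 9 members measured in each pair, 8 lay within 2-fold and 1 was past it. Of all measured genes, 5.53% were past 2-fold for Lgr5+ over Lgr5- cells. The share was 8.29% for Lgr5+ over Sox9+ cells and 8.02% for Lgr5- over Sox9+ cells. A count of 1 in 9 is near these shares. The median log2 ratio was -0.07 for Lgr5+ over Lgr5- cells, 0.12 for Lgr5+ over Sox9+ cells and 0.1 for Lgr5- over Sox9+ cells, against 0.08, 0.06 and -0.01 over all measured genes. Cited2, an AP-2 coactivator, stood at 158.3 FPKM in Sox9+ cells, 58.6 FPKM in Lgr5+ cells and 61.5 FPKM in Lgr5- cells. It was 2.67-fold lower in Lgr5+ cells and 2.55-fold lower in Lgr5- cells than in Sox9+ cells, opposite to Tfap2b. Cited4 was 2.03-fold higher in Lgr5+ than in Lgr5- cells, at 5.43 and 2.17 FPKM. Kctd15, an inhibitor of AP-2 activity, stood at 21.1 FPKM in Sox9+ cells, 32.9 FPKM in Lgr5+ cells and 37.2 FPKM in Lgr5- cells.

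Reported AP-2 target genes, a list of 10, went both ways, with medians of 0.44, 0.06 and -0.89 in the same 3 pairs. The medians over all measured genes were 0.08, 0.06 and -0.01. Of all measured genes, 5.53%, 8.29% and 8.02% were past 2-fold in these pairs, in either direction. Between the Lgr5+ and Lgr5- libraries, 3 of the 8 measured were past 2-fold higher in Lgr5+ cells and 1 was lower. Those higher were the keratin genes Krt5 (6.08-fold) and Krt14 (5.04-fold) and the receptor gene Erbb3 (2.76-fold). The receptor gene Kit was 2.11-fold lower. Between the Lgr5- and Sox9+ libraries 1 of 8 was higher in Lgr5- cells (Kit, 2.2-fold) and 4 were lower, which were Krt14 (3.53-fold), Cdkn1a (2.96-fold), Erbb3 (2.55-fold) and Krt5 (2.5-fold). Krt5 and Krt14 also mark epidermis, and their levels were lowest in Lgr5- cells, where Tfap2a and Tfap2b were highest.

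NuRD subunits, the corepressor partners of Sall proteins, were at similar levels in the 3 libraries. None of the 14 measured of 15 listed was 2-fold different in any pair, with medians of 0.05, -0.03 and -0.02. Of all measured genes, only 5.53% to 8.29% by pair were past 2-fold, so few would be in a list of this size. Their summed level was 1238 FPKM in Sox9+ cells, 1238 FPKM in Lgr5+ cells and 1156 FPKM in Lgr5- cells. Of the 8 pluripotency partners of Sall4, only Klf4, which is widely expressed, reached 1 FPKM. It stood at 121.2 FPKM in Sox9+ cells, 71.1 FPKM in Lgr5+ cells and 62.2 FPKM in Lgr5- cells.

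Limb patterning genes that act beside Sall genes were a list of 19, with 16 measured in each pair. Between the Lgr5+ and Lgr5- libraries none was 2-fold higher in Lgr5+ cells and 4 were lower, with a list median of -0.36. They were the Iroquois genes Irx3 (2.97-fold) and Irx5 (2.07-fold), the growth factor gene Fgf10 (2.18-fold) and Hoxd12 (2.11-fold). Like Tfap2a, Tfap2b, Sall1 and Sall2, these 4 genes were highest in Lgr5- cells. The list went both ways, as Gli2 (1.89-fold), Gli3 (1.84-fold) and Tbx5 (1.7-fold) were higher in Lgr5+ than in Lgr5- cells, below the threshold. Irx5 stood at 5.25 FPKM in Sox9+ cells, 12.2 FPKM in Lgr5+ cells and 26.3 FPKM in Lgr5- cells.

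The median over all measured genes was 0.06 between the Lgr5+ and Sox9+ libraries, and 8.29% of them were past 2-fold. Against the Sox9+ library, 6 of these 16 limb genes were higher and 2 lower in Lgr5+ cells, with a median of 0.40. The largest differences were those of Tbx5 (3.71-fold), Gli2 (2.8-fold), Gli3 (2.61-fold) and Hoxa13 (2.33-fold), which were higher, and of Pitx1 (2.82-fold) and Hoxa11 (2.28-fold), which were lower. In Lgr5- cells 7 were higher than in Sox9+ cells, led by Irx5 (4.36-fold), Hoxd12 (2.69-fold) and Hoxa13 (2.55-fold), and Hoxa11 was lower (2.53-fold). The list median was 0.70, against -0.01 over all measured genes, of which 8.02% were past 2-fold. Tbx5, the forelimb gene with which Sall4 acts, stood at 4.92 FPKM in Sox9+ cells, 20.9 FPKM in Lgr5+ cells and 11.9 FPKM in Lgr5- cells. Its order was the reverse of that of Sall4, but Sall4 was under 1 FPKM in both E14.5 libraries and was not measured between them. Pitx1, the hindlimb selector gene, was highest in Sox9+ cells at 161 FPKM, against 56.5 FPKM in Lgr5+ cells and 83.2 FPKM in Lgr5- cells. Tbx4, also a hindlimb gene, stood at 36.8 FPKM in Sox9+ cells, 22 FPKM in Lgr5+ cells and 28 FPKM in Lgr5- cells. Pitx1 and Tbx4 were thus above Tbx5 also in both E14.5 libraries, which the labels call forelimb, and the reason was not tested. The part of Pitx1 or of limb in the higher Sall3, Sall4 and Tfap2c levels of the Sox9+ library was not tested.

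Markers of other cell types moved with some of these differences. Limb mesenchyme genes, a list of 9 with none at 0, summed to 323.9 FPKM in Sox9+ cells, 348.1 FPKM in Lgr5+ cells and 810.8 FPKM in Lgr5- cells. In Lgr5+ cells 3 of the 9 were past 2-fold lower than in Lgr5- cells, namely Twist1 (3.14-fold), Prrx2 (2.86-fold) and Prrx1 (2.44-fold). Of all measured genes in that pair, 5.53% were past 2-fold in either direction. Red blood cell RNA was also highest in Lgr5- cells, with Alas2, the erythroid haem synthesis enzyme gene, at 25.4 FPKM against 0.86 FPKM in Sox9+ cells and 1.16 FPKM in Lgr5+ cells. The part of these cells in the Tfap2a, Tfap2b, Sall1 and Sall2 levels was not tested.

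Epidermis, where AP-2 genes are known to be active, showed another order. Its 14 markers, none at 0, summed to 78.4 FPKM in Sox9+ cells, 131.6 FPKM in Lgr5+ cells and 35.1 FPKM in Lgr5- cells. Krt17 alone gave 63.5 FPKM of the Lgr5+ sum, against 8.25 FPKM in Sox9+ cells and 5.96 FPKM in Lgr5- cells. Without Krt17 the Lgr5+ sum would not exceed that of Sox9+ cells. Between the Lgr5+ and Lgr5- libraries 7 of the 12 measured were past 2-fold higher in Lgr5+ cells, led by Krt17 (9.27-fold) and Krtdap (8.42-fold). Of all measured genes in that pair, 5.53% were past 2-fold in either direction. The summed epidermal level was lowest in the library where Tfap2a and Tfap2b were highest. The part of epidermal cells in the AP-2 levels of any library was not tested. Trp63, which defines the basal epidermis, stood at 0.3 FPKM in Sox9+ cells, 0.51 FPKM in Lgr5+ cells and 0.09 FPKM in Lgr5- cells. Epcam and Grhl3 went against this and were highest in Lgr5- cells, at 8.76 and 1.82 FPKM. Krt8, Krt18, Krt19 and Perp were instead highest in Sox9+ cells, as Tfap2c was. Krt18 stood at 26.9 FPKM there against 4.93 FPKM in Lgr5+ cells and 9.41 FPKM in Lgr5- cells.

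Neural crest, Schwann cell and melanocyte markers, 12 genes, summed to 40.6 FPKM in Sox9+ cells, 20.4 FPKM in Lgr5+ cells and 18.9 FPKM in Lgr5- cells. S100b was the largest term of the Sox9+ sum at 12.1 FPKM, against 2.62 FPKM in Lgr5+ cells and 2.56 FPKM in Lgr5- cells. Foxd3 was at 0 in Lgr5+ cells and Dct in Lgr5- cells. Sox10, which defines glial and early neural crest cells, stood at 10.1 FPKM in Sox9+ cells, 5.88 FPKM in Lgr5+ cells and 2.76 FPKM in Lgr5- cells. Of the 7 measured in that pair, 5 were past 2-fold lower in Lgr5- cells than in Sox9+ cells, and only Ngfr was higher, at 4.96-fold. Of all measured genes in this pair, 8.02% were past 2-fold in either direction. The sum of 9 chondrocyte genes, none at 0, was also highest in Sox9+ cells, at 7478 FPKM against 3245 FPKM in Lgr5+ cells and 2013 FPKM in Lgr5- cells. Col2a1 alone gave 5304 FPKM of the Sox9+ sum. The chondrogenic factor genes Sox9, Sox5 and Sox6 of this list were instead highest in Lgr5+ cells, with Sox5 at 35.1 FPKM against 21.3 FPKM in Sox9+ cells. The part of these cell types in the Tfap2c, Sall3 and Sall4 levels of Sox9+ cells was not tested. The 9 interzone genes, which mark the Lgr5+ library at 1243 FPKM against 255.2 FPKM in Sox9+ cells and 283.3 FPKM in Lgr5- cells, followed a pattern that none of the 7 genes shared. Muscle and macrophage markers had their highest sums in Lgr5+ cells too, at 94.4 FPKM for 6 genes and 50.9 FPKM for 5 genes, and endothelial markers in Lgr5- cells, at 8.24 FPKM for 5 genes.

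**Figure D4:**
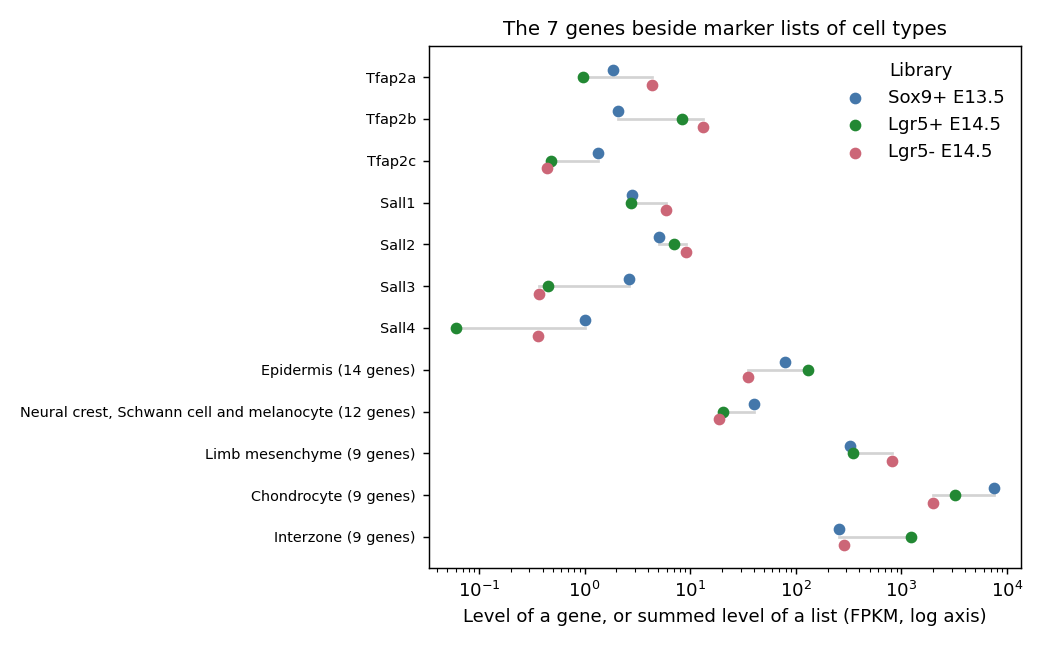
Points give, on a log axis in FPKM, the level of each of the 7 genes and the summed level of 5 marker lists in each library. Tfap2a, Tfap2b, Sall1, Sall2 and the limb mesenchyme sum are highest in Lgr5- cells, and the epidermis sum is lowest there, at 35.1 FPKM.

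Genes whose pattern over the 3 libraries was most like that of each member were found by the distance between centred log2 values of FPKM + 1. They were sought among genes of a highest level within 2-fold of the member's. Nearest to Tfap2a were Hs3st6, Angpt1 and Pdzrn4, at distances of 0.03 to 0.07, and 8 of 3744 genes compared lay within 0.2. Angpt1, which encodes angiopoietin, stood at 2.14 FPKM in Sox9+ cells, 1.2 FPKM in Lgr5+ cells and 5.22 FPKM in Lgr5- cells. Nearest to Tfap2b were C1qtnf2, Gm106 and Ngfr, at 0.05 to 0.16, with 5 of 4730 genes within 0.2. Ngfr, a neurotrophin receptor gene, stood at 0.67 FPKM in Sox9+ cells, 3.72 FPKM in Lgr5+ cells and 7.28 FPKM in Lgr5- cells.

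The other members had more genes within 0.2. The distance is not scaled to how widely a gene varies, so widely varying members tend to have fewer genes near them by construction. Nearest to Sall3 were Alx1, Klk10 and Scarna6, with 30 of 3069 genes within 0.2. The homeobox gene Alx1 stood at 1.99 FPKM in Sox9+ cells, 0.16 FPKM in Lgr5+ cells and 0.09 FPKM in Lgr5- cells. Nearest to Sall4 were 4930568K20Rik, the LIM homeobox gene Isl2 and Gm53, with 46 of 1328 genes within 0.2. Nearest to Tfap2c were the checkpoint kinase gene Chek2, Gabre and the lubricin gene Prg4, with 105 of 1926 within 0.2. Nearest to Sall1 were Raver1-fdx1l, Magee2 and Arhgdig, with 46 of 4182 within 0.2. For Sall2, whose values varied least among the members highest in Lgr5- cells, they were Btbd11, Exoc2 and Enox1, and 194 of 4636 genes lay within 0.2. With 3 libraries, such likeness describes these libraries alone.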

How the data were processed

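The authors deposited 1 table per library with FPKM values for 23284 gene symbols, rounded to 2 decimals, and these FPKM values were used as deposited. The submitters' processing notes name HISAT2, mm10 and GRCm38. Per the labels' protocols, a low-input SMARTer kit and 10 ng of RNA were used for each library. The quantification tool, its annotation and its treatment of multi-mapping reads were not given in the sources used here. Tfap2a and Sall4 overlap antisense or opposite-strand genes in GENCODE, and no statement of strand-specific counting was found, so reads of such pairs cannot be told apart.

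Ratios used FPKM + 1, a minimum of 1 FPKM in the higher library and a 2-fold threshold. With 1 library per population no test was run. Low values were searched for steps of whole fragments over 4559 single-transcript genes. The best score, where 1 would be whole fragments throughout, was 0.0883 to 0.15 by library, so no depth was recovered. The calling step was tested on simulated data. Because the depth of the real libraries is unknown, that test gives no error rate for calls among the 7 genes. The 7 genes and all lists were chosen with earlier results of these data known. The text names all 7 genes, list genes at least 2-fold different (at most 6 per list and pair, by size) or needed to describe a member, and the 3 nearest genes of like pattern. Genes named below 2-fold (Kctd15, Klf4, Trp63 and Tbx4 among them) were chosen after their values were seen. Gene spans are from GENCODE vM21 and promoter windows from RefSeq on GRCm38.p6, and protein sequences were not used here. Work was done in Python 3.11.15 with pandas 2.3.3 and numpy 2.4.6.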

Additional observations from a re-analysis of the deposited data

How the results depend on the processing

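No paired analysis was possible because each population had 1 library, and for the same reason no library could be left out. Of 21 log2 ratios (7 genes in 3 pairs), 20 kept their direction in all 7 alternative scalings and pseudocounts, and the exception was Sall1 between the Lgr5+ and Sox9+ libraries, from -0.07 to 0.11. Tfap2b stayed past the threshold against the Sox9+ library in all 11 alternatives of both pairs. The number of members called was 1 for Lgr5+ over Lgr5-, 2 for Lgr5+ over Sox9+ and 2 for Lgr5- over Sox9+. In that order it was 2, 4 and 6 with a pseudocount of 0.1 (where 9.26%, 13.49% and 13.45% of all measured genes were called) and 2, 4 and 6 at 1.5-fold (15.43%, 22.5% and 22.29%). It was 0, 1 and 1 both at 3-fold (1.85%, 2.63% and 2.52%) and with a minimum of 5 FPKM (5.48%, 8.0% and 8.0%). Rescaling to TPM gave 4 for Lgr5- over Sox9+ (10.07%), adding Tfap2a and Sall1, and 3 for Lgr5+ over Sox9+ (11.29%), adding Sall4. A pseudocount of 0.5 gave 3 in each of these pairs, adding Sall4 for Lgr5+ (10.93%) and Tfap2a for Lgr5- (10.71%). With a pseudocount of 0.1 the widest log2 ratio of the 21 was that of Sall4 for Lgr5+ over Sox9+, at -2.78, against 2.59 for Tfap2b for Lgr5- over Sox9+. A higher minimum or threshold lowers such a count by construction, and a smaller pseudocount raises it. TPM brings the unequal library sums, 534025 to 593871 FPKM, to a larger common total, while the 1 added and the minimum of 1 stay. Relative to the levels, the pseudocount and minimum are therefore smaller in TPM, and the unequal sums shift the medians. How much each gave to the change in TPM was not tested. Over all genes, called genes were 541 higher and 495 lower for Lgr5+ over Sox9+, against 981 and 533 in TPM. For Lgr5- over Sox9+ they were 384 and 617, against 706 and 644 in TPM and 487 and 490 when scaled without Rn45s and haemoglobin genes. Rn45s made up 6.43% of the summed FPKM in Sox9+ cells, 1.86% in Lgr5+ cells and 6.13% in Lgr5- cells. TPM moved the median log2 ratio of all measured genes from 0.06 to 0.21 and from -0.01 to 0.11 in these pairs. Depth is unknown, so levels under 1 FPKM, such as those of Sall4, carry a counting error that could not be given.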
